A study of Sus scrofa with 4 samples.

Results

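RAG1 and RAG2, which encode the recombinase of lymphocytes, and PTCRA, which encodes the alpha chain of the pre-T cell receptor (pre-TCR), were examined probe by probe in the thymus of IL2RG KO and WT pigs. The 3 genes were taken up with the KO against WT values of these arrays known, so their differences between the genotypes chose them and are described here without a test. Of the 3020 genes that a probe of the array could be matched to by its RefSeq accession, these are 3, and they had 7 probes: 4 for RAG1, 1 for RAG2 and 2 for PTCRA.

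RAG1 and RAG2 together cut DNA at the recombination signals that flank the gene segments of antigen receptors, and the cut ends are then joined, so that T cell receptor and immunoglobulin genes are assembled only in lymphocyte precursors. In the thymus an immature thymocyte first rearranges its T cell receptor beta chain, which pairs with the PTCRA protein and the CD3 chains. Signals of this pre-TCR let the cell divide and proceed to the stage at which CD4 and CD8 are both present, and the recombinase is then used again for the alpha chain.

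Total RNA of whole thymus was hybridised to 4 Agilent porcine oligonucleotide arrays, 2 per genotype, each with 1 sample in 1 colour. All pigs were Minnesota miniature swine, and their age is not in the labels. The KO pigs carried 1 disrupted allele of IL2RG, labelled IL2RG+/-, the X-linked gene of the common gamma chain of interleukin receptors, and the WT pigs were labelled wildtype. The KO pigs came from TALEN-edited cells by somatic cell nuclear transfer, most KO pigs of the study had no thymus, and the KO RNA was from those with a rudimentary one. The labels do not tie an array to an animal, so p-values measure the spread between arrays alone. KO replicate 1 shared a slide with WT replicate 2, and KO replicate 2 shared the other slide with WT replicate 1. In bulk RNA, fewer cells of a type and less RNA per cell cannot be told apart.

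IL2RG itself was read by 2 probes. At the brighter one the log2 signal, relative to the 75th percentile of its array, was -3.15 and -3.29 on KO replicates 1 and 2 and -0.13 and 0.52 on WT replicates 1 and 2, which is 10.7-fold lower in KO (log2 difference -3.41, standard error 0.27, adjusted p = 0.00256 in limma). The other probe was 20.8-fold lower (adjusted p = 0.00208 in limma). Both KO arrays were below both WT arrays at each probe, though the files do not say where in IL2RG the probes lie, and a probe outside the disrupted stretch would be no check of the genotype. Between 73.5% and 74.5% of probes were well above background on the KO arrays and 67.9% to 68.1% on the WT arrays, and no spot was saturated. Of the 43603 probes, 31959 stood well above background in both KO or in both WT arrays and were compared, the 7 probes of RAG1, RAG2 and PTCRA among them.

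RAG1, the DNA-cutting subunit of the recombinase, was bright in WT thymus and near the lower end of the scale in KO thymus. At its brightest probe, A_72_P441992, the processed signal (the spot's brightness after background subtraction, in intensity units) was 8968 and 11692 on WT replicates 1 and 2. On KO replicates 1 and 2 it was 100.2 ± 10.2 and 30.7 ± 3.93, where ± is the error that the scanner software gives for the spot. All 4 values were well above background. Both KO arrays lay far below both WT arrays, and the scaled difference was -7.68 on the log2 scale, or 205-fold (SD 1.11 over the KO arrays and 0.16 over the WT arrays, n = 2 each).

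The second RAG1 probe, A_72_P443933, gave 8649 and 9539 on the WT arrays against 76.8 and 27.9 on the KO arrays, 218-fold lower in KO. The third, A_72_P443935, gave 2204 and 2926 in WT against 14.5 and 5.75 in KO, 309-fold lower, with the value of KO replicate 2 not well above background (231-fold with that value raised to 10.3, the lowest signal well above background on that array). The groups did not overlap at either probe, and KO replicate 1 was the higher KO array at both.

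The fourth RAG1 probe, A_72_P537909, was the dim one. Its signal was 236 and 318 on the WT arrays and 9.20 and 14.3 on the KO arrays, of which KO replicate 1 was not well above background. It was 26.4-fold lower in KO, the smallest fall of the 7 probes, and here KO replicate 2 was the higher KO array. The files do not say where in the RAG1 transcript each probe lies, and whether the probes read the same transcripts was not tested.

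RAG2, the partner subunit without which RAG1 does not cut, was read by 1 probe, A_72_P305069. Its signal was 952 and 1596 on WT replicates 1 and 2. On the KO arrays it was 12.6 ± 2.29 in replicate 1, above background, and 3.14 ± 2.48 in replicate 2, which was not well above background. The measured difference was -7.76 on the log2 scale, or 217-fold (SD 1.33 in KO and 0.41 in WT). With KO replicate 2 raised to 10.3 likewise, the difference was -6.91, or 120-fold.

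PTCRA, which pairs with the newly made T cell receptor beta chain, was read by 2 probes of nearly equal behaviour. A_72_P441823 gave 3715 and 5326 in WT and 39.8 ± 4.46 and 13.4 ± 2.52 in KO, and A_72_P710313 gave 3541 and 4821 in WT and 43.0 ± 4.72 and 12.2 ± 2.40 in KO. All of these values were well above background. The probes were 214-fold and 200-fold lower in KO, with log2 differences of -7.74 (SD 1.02 in KO and 0.25 in WT) and -7.65 (SD 1.19 and 0.20).

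**Figure D1:**
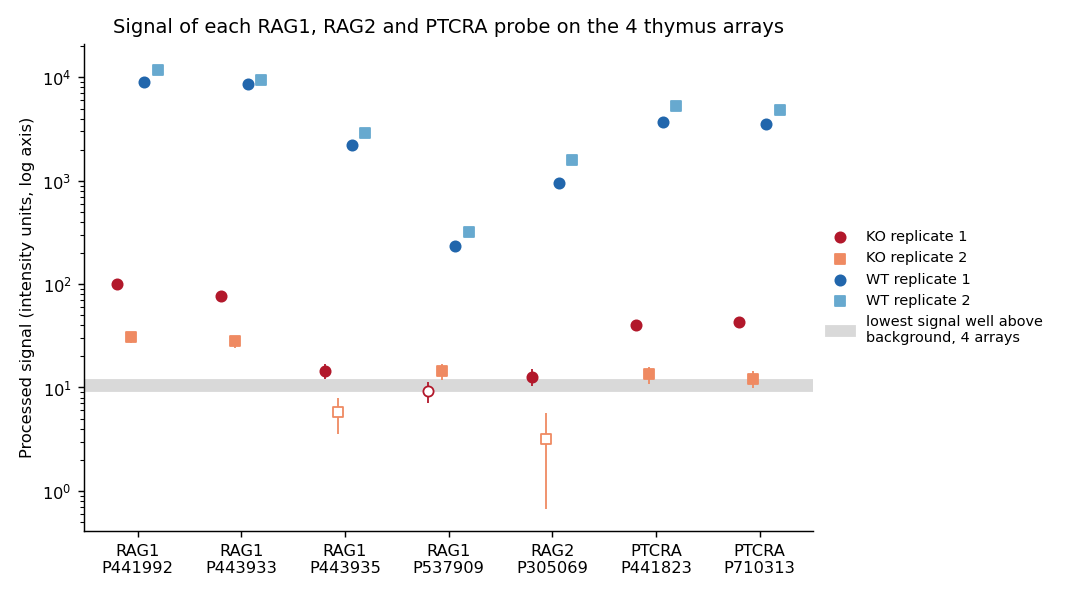
Processed signal in intensity units on a log axis for each of the 7 probes of RAG1, RAG2 and PTCRA, with 1 point per array. Vertical lines are the error that the scanner software gives for the spot, open points are values not well above background, and the grey band spans the lowest signals well above background on the 4 arrays (9.27 to 11.8). At every probe both KO points lie below both WT points, and 3 KO points are open.

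All 7 probes were well above background on both WT arrays and 4 of them on both KO arrays, with the other 3 above it on 1 KO array. All 7 had both KO arrays below both WT arrays and were at least 2-fold lower in KO. Over all 31959 probes, 41% had both KO arrays below both WT arrays and 13.8% were at least 2-fold lower in KO, and nothing is read from the count of 7 since the genes were chosen on this contrast. Their median difference was -7.74 against a median of -0.06 over all probes compared. The signal left in KO was 0.46% to 0.50% of the WT level at the 4 probes with all values well above background, and at the other 3 the KO mean includes a value that was not.

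How large a fall a probe could show depended on its WT signal. From the WT mean down to the lowest signal well above background on the KO arrays, the range was 1164-fold and 1032-fold at the 2 brightest RAG1 probes and 506-fold and 470-fold at the PTCRA probes. The falls of 200-fold to 218-fold at these 4 probes lay inside that range. It was 289-fold at RAG1 A_72_P443935 and 140-fold at RAG2, and the measured falls of 309-fold and 217-fold went past it. At RAG1 A_72_P537909 the range was 31.1-fold and the fall 26.4-fold. The smallest fall among the 4 RAG1 probes thus stood at the probe with the smallest range, and the order of the 7 falls cannot be read as an order of the 3 genes.

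**Figure D2:**
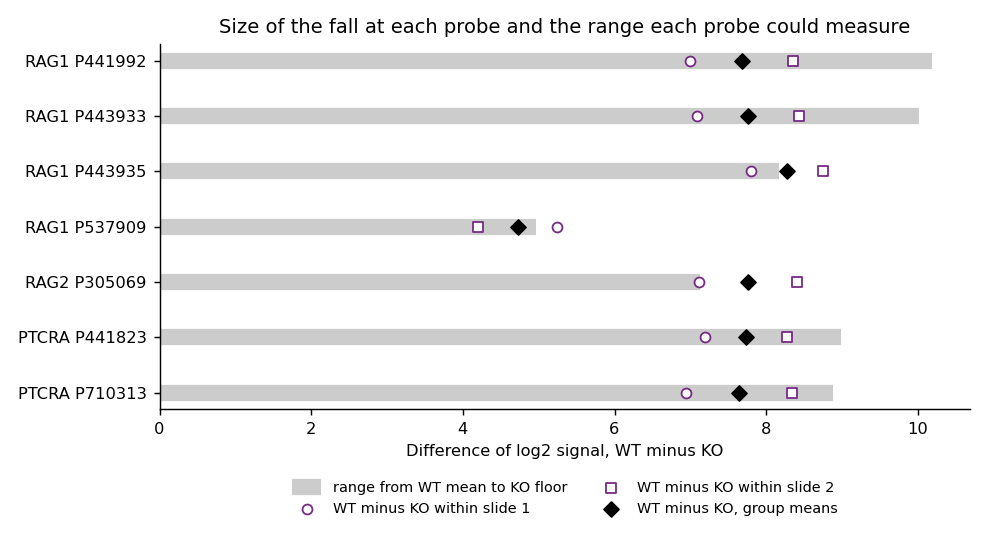
Horizontal axis, difference of log2 signal, WT minus KO, for each probe. Grey bars run from 0 to the largest difference that the probe could show above the KO background limit, filled diamonds are the differences of group means, and open points are WT minus KO within slide 1 (circles) and slide 2 (squares). The diamond lies inside the bar at 5 probes and beyond it at RAG1 A_72_P443935 and RAG2. Every mark beyond a bar rests on a KO value that was not well above background and stands for a bound.

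The 2 KO arrays differed from each other at these genes. At the 4 probes with both KO values well above background, KO replicate 1 was above KO replicate 2 by 2.97-fold and 2.51-fold (RAG1) and by 2.72-fold and 3.22-fold (PTCRA) on the scaled values. The PTCRA signals on KO replicate 2, 13.4 and 12.2, were close to 10.3, the lowest signal well above background there. The size of the PTCRA ratios thus depends on the background subtraction. At RAG1 A_72_P443935 and RAG2, where KO replicate 2 was not well above background, KO replicate 1 was at least 1.29-fold and at least 1.12-fold higher. At the dim RAG1 probe, where KO replicate 1 was not well above background, KO replicate 2 was the higher. Over all 31959 probes, 2.34% were at least 2-fold apart between the KO arrays in either direction, and the median size of the log2 difference was 0.16. In 1 direction alone, 0.407% were at least 2-fold higher on KO replicate 1 than on KO replicate 2. Among the 7601 probes with a KO mean inside the span of the 7 probes, which includes the 7, 1.04% were. The ratios of WT replicate 2 to WT replicate 1 were 0.986 to 1.5 at the 7 probes, smaller than the KO ratios at the 4 probes above. Over all 31959 probes the WT arrays differed more than the KO arrays, with 8.78% at least 2-fold apart in either direction.

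At the brightest RAG1 probe the median brightness of the spot before background subtraction was 159 on KO replicate 1 and 89 on KO replicate 2, above local backgrounds of 33 and 35. At RAG2 it was 68.5 and 63 above local backgrounds of 34 and 32.5, a small difference of the unsubtracted spots. A KO signal was thus measurable on both KO arrays at the 2 brightest RAG1 probes and both PTCRA probes, and at RAG2 on KO replicate 1 alone.

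The genes of the lists described below did not part the KO arrays in this way. Most of them were brighter on the KO arrays than the 7 probes, so the comparison is not at equal brightness. Of their 69 tested genes, none was 2-fold or more higher on KO replicate 1. BCL2L1, which was as dim on the KO arrays as the 7 probes, was the 1 gene 2-fold or more higher on KO replicate 2. For the 9 thymocyte markers the median log2 difference, KO replicate 1 minus KO replicate 2, was -0.01, for the 7 pre-TCR complex genes -0.02, for the 7 proliferation genes -0.11 and for the 11 macrophage markers -0.35. The paper took its thymus profiles from 2 KO pigs and reported minor variability between them in the sets of changed genes. The labels tie no array to a pig, and the KO arrays lay on different slides, so array, slide and animal cannot be told apart here.

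**Figure D3:**
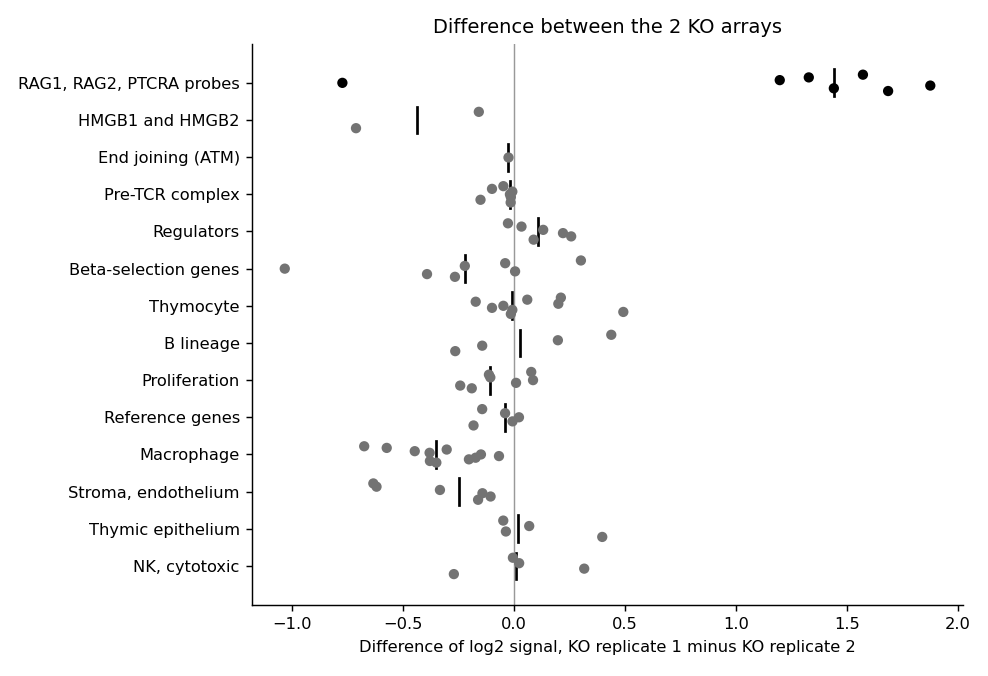
Horizontal axis, difference of scaled log2 signal, KO replicate 1 minus KO replicate 2; each point is a probe of RAG1, RAG2 or PTCRA (black) or the brightest probe of a listed gene (grey), and vertical bars are medians. The 4 black points of probes well above background on both KO arrays lie between 1.33 and 1.69, the other 3 rest on a KO value that was not, and the grey points of all lists lie below 1.

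The size of the fall differed between the slides at the same 4 probes. Each slide held 1 KO and 1 WT array, so these falls restate the differences between the KO arrays and between the WT arrays given above. The falls with 1 KO array left out restate the difference between the KO arrays likewise. Neither is a separate observation. Within slide 1, KO replicate 1 against WT replicate 2, the falls were 128-fold and 136-fold at RAG1 and 147-fold and 123-fold at PTCRA. Within slide 2, KO replicate 2 against WT replicate 1, they were 327-fold and 347-fold at RAG1 and 311-fold and 326-fold at PTCRA. At RAG1 A_72_P443935 the falls were 222-fold within slide 1 and at least 241-fold within slide 2, and at RAG2 they were 139-fold and at least 104-fold, so that a difference between the slides was not measurable there. At the dim RAG1 probe they were at least 37.6-fold within slide 1 and 18.4-fold within slide 2. Without KO replicate 1 the falls at the brightest probes were 353-fold for RAG1, at least 127-fold for RAG2 and 352-fold for PTCRA, and without KO replicate 2 they were 119-fold, 113-fold and 130-fold.

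By their brightest probe RAG2, PTCRA and RAG1 had the largest falls of the 2702 named genes compared, at -7.76, -7.74 and -7.68. The next were LOC396700 at -6.55 (93.9-fold), LOC100302368 at -6.16, CD163L1 (WC1, a scavenger receptor of pig gamma-delta T cells) and AVP (vasopressin) both at -6.00, and LOC396781 (IGHG, the immunoglobulin gamma heavy chain) at -5.72. The 3 genes were chosen with this contrast known, so their ranks are a description. The ranks also rest on 1 probe per gene. That of RAG2 rests on a KO replicate 2 value that was not well above background. With that value raised to the background limit RAG2 was at -6.91, behind PTCRA and RAG1 and still ahead of LOC396700. With the normexp background correction, whose offset bounds the fold of dim values, RAG2 was at -4.17. CCR9, VPREB1 and CD1D, described below, fell further under that setting, so the place of RAG2 depended on the processing. Of the 13 tested probes of LOC396781, 10 had differences between -7.75 and -9.02, so falls this deep were not particular to the 3 genes. A gene that is dim in WT thymus could not show a fall of this size. CD163L1 and AVP were not well above background on either KO array, so their falls are bounds, at least 20.5-fold and at least 46.3-fold, and not measured differences.

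The pattern most like that of each of RAG1, RAG2 and PTCRA was also that of these 5 genes, in the same order. Likeness was the Euclidean distance between the 4 log2 values, each gene centred on its WT mean, among 2537 genes well above background on both WT arrays. This distance mostly measures the size of the fall, so it gives the ranking above a second time and is no separate observation. LOC396700 was nearest, at 2.10 from RAG1, 2.35 from RAG2 and 2.11 from PTCRA, and LOC396781 the most distant of the 5, at 3.0, 3.16 and 3.04. Between the probes of the 3 genes, leaving out the dim RAG1 probe, the distances were 0.10 to 0.95, and the shortest joined the brightest RAG1 probe and PTCRA A_72_P710313. The dim RAG1 probe lay 4.48 to 5.2 from the others.

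Not only these genes fell so far. In all, 30 probes fell at least as far as PTCRA A_72_P710313, the sixth of the 7 probes: 6 of RAG1, RAG2 and PTCRA, 10 of the 13 tested probes of LOC396781 and 14 probes without a gene name here. At the LOC396781 probes KO replicate 1 was above KO replicate 2 at 1 of 10, and at the unnamed ones at 4 of 14. Counting only the 7116 probes bright enough in WT to show such a fall above the KO background limit, 24 did (0.337%), of which 5 were RAG1 and PTCRA probes, 10 were of LOC396781 and 9 were unnamed.

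RAG1 and RAG2 stand side by side in the pig genome, and the genes around them were looked at next. Of the 5 protein-coding genes on each side of the pair in the RefSeq table, 2 had a tested probe. API5, an inhibitor of apoptosis, had a log2 difference of -0.47 (adjusted p = 0.0626 in limma), and TRAF6, a signalling adaptor of the Toll-like and interleukin 1 receptors, one of -0.82 (adjusted p = 0.0150). Neither reached a 2-fold change, except TRAF6 with arrays scaled to their median (-1.08, adjusted p = 0.00786).

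Around PTCRA 7 of the 10 neighbours had a tested probe. GNMT, a glycine methyltransferase, was lower in KO by -2.32 on the log2 scale (adjusted p = 0.0105 in limma), and PEX6, a peroxisome assembly factor, by -1.21 (adjusted p = 0.0114). The call on PEX6 was lost without either KO array (adjusted p = 0.0667 and 0.0899). The other 5 (TBCC, RPL7L1, CNPY3, PPP2R5D and MEA1) were not called, with differences from -0.94 to 0.10. The falls of the tested neighbours were thus far smaller than those of the 3 genes, and CNPY3, next to PTCRA in the table, was at -0.04. The genes directly before the RAG pair and directly before PTCRA had no named probe.

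The genes that work with RAG1, RAG2 and PTCRA were taken from 5 lists by role. A gene was represented by its brightest probe and called different at an adjusted p under 0.05 in limma and a change of at least 2-fold, a rule that called 13% of all probes lower and 21% higher in KO. Of the 69 listed genes 23 had a tested probe, of which 13 were lower, 1 was higher and 9 were not called, with a median of -1.93.

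Among the partners of the recombinase, HMGB1 and HMGB2, the DNA-bending proteins that help the recombinase to hold and cut its 2 target sites, were both lower in KO. HMGB1 was at 5.66 and 5.82 on the KO arrays and 7.63 and 7.71 on the WT arrays (log2 difference -1.93, standard error 0.16, adjusted p = 0.00277 in limma), and all 16 of its tested probes were called lower. HMGB2 was at 3.79 and 4.50 against 6.37 and 6.20 (-2.14, standard error 0.29, adjusted p = 0.00697), with all 4 probes called lower. These falls were 3.80-fold and 4.42-fold. DNTT, which adds bases at the joints, had no named probe.

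Of the 16 genes of DNA end joining, which closes the breaks that the recombinase makes, 1 had a tested probe. ATM, the kinase that signals such breaks, had a log2 difference of 0.31 (adjusted p = 0.172 in limma) and was not called at any of its 6 probes.

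Of the pre-TCR complex and its first kinases, 6 of 7 tested genes were lower in KO, none was higher and the median was -2.40. The CD3 chains, which carry the signal of the pre-TCR, fell by 2.12 (CD3D), 2.40 (CD3E), 2.48 (CD3G) and 3.0 (CD247, the zeta chain) on the log2 scale. LCK, the kinase that phosphorylates them, fell by 2.56 (adjusted p = 0.00448 in limma), and SYK, which binds the phosphorylated chains early in development, fell by 2.09 (adjusted p = 0.00236). FYN, the other kinase of the LCK family on the list, was at -0.78 and was not called (adjusted p = 0.0788). PTCRA was thus 200-fold or more lower where its partner chains CD3D, CD3E, CD3G and CD247 were 4.35-fold to 7.98-fold lower, though the difference between these falls has no test here since PTCRA was chosen on it.

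Of the transcription factors that regulate RAG or PTCRA in thymocytes, 3 of 6 tested genes were lower and none was higher, with a median of -1.13. GATA3, needed for T cell commitment, was lower by -3.72 (standard error 0.22, adjusted p = 0.00208 in limma), or 13.2-fold, with 2.71 and 2.57 on the KO arrays against 6.13 and 6.59 on the WT arrays. LEF1, a partner of beta-catenin in early thymocytes, was lower by -3.62 (adjusted p = 0.00205), or 12.3-fold, at all 3 of its probes. ETS1, a regulator of thymocyte genes, was lower by -1.83 (adjusted p = 0.00293). ID2, an inhibitor of E proteins, was at 0.92, under 2-fold at adjusted p = 0.0111, its relative ID3 was at -0.42 (adjusted p = 0.131), and FOXO3 was at 0.03 (adjusted p = 0.914).

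Of the genes induced or used at beta selection, the step that the pre-TCR controls, 2 of 7 tested genes were lower, 1 was higher and 4 were not called, with a median of -0.34. CCND3, the D cyclin of pre-TCR driven division, fell by 2.58 on the log2 scale (adjusted p = 0.00236 in limma). BCL2L1, a survival factor of immature thymocytes, fell by 2.48 (adjusted p = 0.0153), from -2.91 and -2.12 in WT to -5.51 and -4.48 in KO. IL2RA (CD25), a surface marker of thymocytes at this step, was higher by 1.26 (adjusted p = 0.0207), with -3.90 and -3.51 in KO against -4.70 and -5.22 in WT. The paper reported unchanged IL2RA mRNA by quantitative PCR, without naming the tissue in its text. By staining, a measure of protein, it reported less CD25 in KO thymus than in WT. The call on BCL2L1 was lost without KO replicate 1 (adjusted p = 0.050), and that on IL2RA without either KO array (adjusted p = 0.0623 and 0.121), with quantile normalization (0.94, under 2-fold) and with normexp (0.37). MYC, BCL2A1, NFATC1 and TFRC were not called, at -0.34, 0.91, -0.88 and 0.35.

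**Figure D4:**
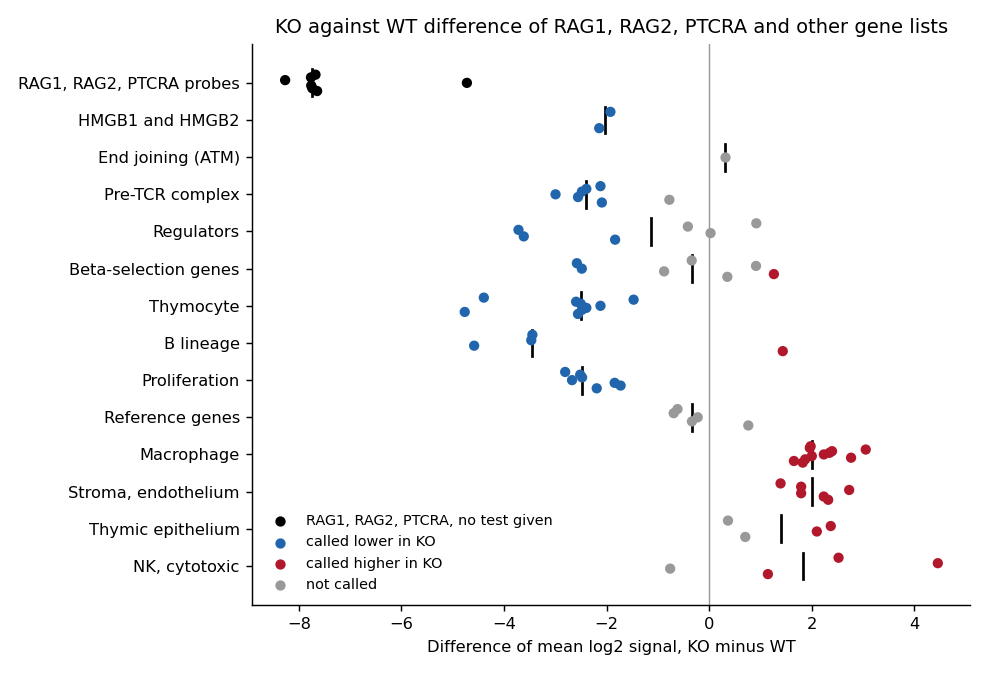
Horizontal axis, difference of mean scaled log2 signal, KO minus WT; each point is a probe of RAG1, RAG2 or PTCRA (black, no test given) or the brightest probe of a listed gene, coloured by its limma call, and vertical bars are medians. Of the 7 black points 6 lie at -7.65 or lower, and every listed gene lies above -5.

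The cell types that use these genes were checked by their markers. All 9 tested markers of thymocytes were lower in KO, with a median of -2.50, of which CCR9, a chemokine receptor of thymocytes, was at -4.77 and CD1D, an antigen-presenting molecule of cortical thymocytes, at -4.40. Their summed level, in units of the 75th percentile of the array, was 29.5 and 28.7 on the KO arrays against 149 and 215 on the WT arrays, and the part of this fall in the values of RAG1, RAG2 and PTCRA was not tested. All 9 were well above background on every array, so the markers of the labelled tissue were present in KO at a lower level.

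B cell precursors also use the recombinase. Of 4 tested B lineage genes 3 were lower in KO and 1 was higher. VPREB1, the surrogate light chain of B cell precursors, was at -1.45 and -1.30 on the KO arrays against 3.24 and 3.17 on the WT arrays (log2 difference -4.58, adjusted p = 0.00205 in limma). CD79A, a chain of the B cell receptor, was lower by -3.47 (adjusted p = 0.00205) and MS4A1 (CD20) by -3.45 (adjusted p = 0.00277), with 1 of the KO arrays well above background at MS4A1. BLNK, an adaptor of the B cell receptor that myeloid cells also have, was higher in KO by 1.43 (adjusted p = 0.0251), a call lost without either KO array (adjusted p = 0.0799 and 0.120). The summed level of the 3 genes that fell was 0.47 and 0.49 in KO against 10.6 and 10.02 in WT, and with BLNK, which made up most of the KO sum, 3.69 and 4.36 against 12.3 and 11. Whether RAG1 and RAG2 signal came from T or B lineage cells cannot be told apart in whole tissue.

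Most markers of other cell types were higher. All 11 tested macrophage markers were higher in KO (median 2.00, summed level 307 and 380 in KO against 82.2 and 61.0 in WT), as were all 6 of stroma and endothelium (median 2.01, 132 and 193 against 68.4 and 30.3). With 1 KO array left out, 3 of the macrophage calls (CD14, TYROBP and FCER1G) and 4 of the stroma and endothelium calls (COL1A2, DCN, LUM and PECAM1) were lost, at adjusted p values of 0.0549 to 0.164, and COL1A2 was lost without WT replicate 2 too (0.0610). With normexp SIGLEC1 was under 2-fold (0.80). Of 4 thymic epithelium genes KRT8 and CLDN4 were higher while EPCAM and DLL4 were not called (summed level 214 and 206 against 63.8 and 42.4, and 18.7 and 19.2 against 13.6 and 15.2 without KRT8). Of 4 NK and cytotoxic genes KLRK1, GZMA and NKG7 were higher and GZMB was not called (10.7 and 10.9 against 5.34 and 7.13). GZMA was well above background on 1 of the 2 WT arrays, so the size of its difference rests on a background-level value. The call on NKG7 was lost without either KO array (log2 differences 1.28 and 1.01). It was also lost without WT replicate 2 and with arrays scaled to their median (0.91 and 0.89, under 2-fold). All 7 tested proliferation genes were lower, with a median of -2.48 (19.8 and 22 against 98.2 and 102), and none of 5 reference genes was called by its brightest probe (median -0.34). Of these, GAPDH (-0.62), PPIA (-0.69) and B2M (0.76) had an adjusted p under 0.05 in limma but changed less than 2-fold. The other of the 2 GAPDH probes was called lower. How much of the fall of RAG1, RAG2 and PTCRA these shifts make up was not tested.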

How the data were processed

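Thymus RNA of IL2RG KO and WT pigs was measured on 4 Agilent arrays, grouped by the genotype in the labels. The authors deposited the intensity values of each spot, written by Feature Extraction 11.0.1.1 (per the file headers), background-subtracted and not normalized between arrays, together with flags for spots well above background and an error per spot. A second deposited table held log2 values of the authors, which followed the log2 scanner signal (Pearson's r of at least 0.9998 over 27970 probes of each array, across probes) with equal medians on all arrays. Its scale was thus log2, and its centring is not stated. It held 4 of the 7 probes of RAG1, RAG2 and PTCRA. The methods name GeneSpring and 2 dyes, while the files hold 1 channel.

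Control spots and outlier spots were left out, which removed 6 probes. Log2 of the processed signal was taken, spots of a probe were averaged and each array was set to 0 at its 75th percentile. Probes well above background in both KO or in both WT arrays were fitted with lmFit and eBayes of limma 3.58.1 in R 4.3.3, without a block, with Benjamini-Hochberg adjustment over all of them. The procedure was tested on simulated data. Plots were made with Python 3.11.15 and matplotlib 3.10.9. Of 7111 probes with a RefSeq accession, 6686 were named through the RefSeq table of Sscrofa11.1, used for names and gene order alone. A gene without a named probe may still be on the array.

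The genes and all lists were chosen with earlier results of these data known. Named are all probes of RAG1, RAG2 and PTCRA, IL2RG, their neighbours, the 5 genes of nearest pattern, and the genes of each list (all where 5 or fewer were tested, otherwise those called). Genes of the longer lists that were not called, and LOC396781 among the deepest falls, were named after their values were seen. With 2 arrays per genotype a two-sided exact permutation test has 6 permutations and reaches 0.333 at the least, so limma's p-values rest on a spread pooled over probes, and the number of arrays limits the precision. The numbers of the labels were checked as pairs: same-numbered arrays deviated with a correlation of -0.29 across probes. The alternatives tried were other scalings, normexp, the deposited log2 values, other filters, blocks and tests, all probes of a gene averaged, and each array left out. Raising dim KO values to the background limit of their array was added after the data were seen. The result of 1 listed gene is not reported here, and the lists were computed without it. Spleen arrays were not analysed here, and no probe or promoter sequence was used here.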

Additional observations from a re-analysis of the deposited data

How the results depend on the processing

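RAG1, RAG2 and PTCRA were lower in KO under every alternative run. Their log2 differences moved by more than the spread between arrays with the normexp background correction (offset 50), to -6.41, -4.17 and -5.88 at the brightest probes, or 84.9-fold, 18.0-fold and 58.9-fold, and for RAG1 at the dim probe A_72_P537909 (-4.72). The offset bounds the fold of dim values by its construction. With 2 arrays per genotype, leaving 1 out could not move a difference by more than the spread between arrays, whatever the values. Those settings were thus no check against that spread. Without KO replicate 1 the falls at the brightest probes were 353-fold for RAG1 and 352-fold for PTCRA. Without KO replicate 2 they were 119-fold and 130-fold. The deposited log2 values gave 202-fold for RAG1 and 204-fold for PTCRA. Of the 5 companion lists, 13 genes were lower in KO, and 12 to 14 were with 1 array left out. The methods' t-test left 6 of them after Benjamini-Hochberg adjustment and 0 after Bonferroni. The count of genes called higher, 1 (IL2RA), was 2 with quantile normalization (ID2 and BCL2A1, without IL2RA), 3 with the deposited values, 0 with normexp and 0 to 2 with 1 array left out, and the methods' t-test called 0 unadjusted, after Benjamini-Hochberg and after Bonferroni. Over all probes the 4169 lower became 6333 with scaling to the median, 2721 with normexp, 2076 to 5147 with 1 array left out (2173 without KO replicate 1 and 2076 without KO replicate 2), 775 with the methods' t-test after Benjamini-Hochberg adjustment (3511 unadjusted) and 0 after Bonferroni. The 6713 higher became 3896 with normexp, 4014 to 7566 with 1 array left out (4250 without KO replicate 1 and 4014 without KO replicate 2), 714 with the t-test after Benjamini-Hochberg (5099 unadjusted) and 0 after Bonferroni. Scaling to the median shifted the median difference of all probes from -0.06 to -0.32 and the share of calls that were higher from 61.7% to 47.9%.

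FOXO3 turned negative with quantile normalization (-0.081), scaling to the median (-0.23), the deposited values (-0.082), without KO replicate 1 (-0.084) and without WT replicate 2 (-0.063), and was 0.14 without KO replicate 2. TBCC turned to -0.16 with scaling to the median, and CNPY3 turned to 0.23 with quantile normalization, 0.23 with the deposited values, 0.17 without KO replicate 1 and 0.19 without WT replicate 1, and was -0.26 without WT replicate 2. None of the 3 was called. The cause was not tested. Over the named genes and alternatives 1268 values kept direction and call, 146 lost the call, 12 gained one and 10 reversed. Part of this tally was fixed beforehand. The t-tests, fold change alone, the filters and the blocks left the differences unchanged and so could not reverse any. Fold change alone could end no call, and Bonferroni ended all of them. The tally is thus a count and no measure of robustness.

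The replicate numbers share no stated animal or day. With the replicate block 13 companion genes were lower and 1 higher, and 4031 and 6627 of all probes were. It ended the calls on COL1A2 (adjusted p = 0.0558) and DCN (0.0595) in limma. With the slide as a block, which equals the crossed pairing, 4240 and 6896 were. Signal over background limits RAG2 and RAG1 A_72_P443935, whose falls passed the range the KO arrays could show.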
